A study of Homo sapiens with 38 samples.

Results

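Telomerase and the shelterin complex were followed through 8 genes in 6 lymphoma cell lines, all established human cultures of the aggressive diffuse large B-cell type (DLBCL): TERT and DKC1 for telomerase, and TERF1, TERF2, TERF2IP, TINF2, POT1 and ACD for shelterin. They are 8 of the 18011 genes in the deposited count table, and all 8 passed the filter on low counts at both times. The set was taken by gene name, but with measured values in view: TERT was chosen by its low level after 14 days of drug and DKC1 by its low level after 6 h. Those values are therefore a description, with no test. The lines OCILY1, PFEIFFER, SUDHL4, SUDHL6, TOLEDO and WSUDLCL2 were kept with the solvent DMSO or with an inhibitor of histone deacetylases (HDACs), either pracinostat or vorinostat. Both drugs are hydroxamic acids. HDACs are the enzymes that deacetylate histones, among other proteins. Doses were not stated in the labels.

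The 7 groups were DMSO at 6 h (6 libraries), pracinostat at 6 h (6), vorinostat at 6 h (5, SUDHL6 not analysed here), and at 14 days pracinostat, vorinostat and a solvent set for each, named DMSOP and DMSOV (5 each, again with SUDHL6 not analysed here). The titles give 1 name, DMSO, at 6 h. In the deposited normalized values those libraries are headed DMSOV for OCILY1, SUDHL4, SUDHL6 and WSUDLCL2, and DMSOP for PFEIFFER and TOLEDO. Both drugs at 6 h were set against them whatever the letter. A line gave 1 library for each treatment at each time, which makes the lines the replicates, and n counts lines. All are cultured tumour lines, and no culture of normal B cells is part of the comparison. Library totals ran from 3188528 to 8919622 counts. Levels are in CPM, the counts of a gene scaled to a common library total, and where a gene had no count the limit of 3 counts corresponded to 0.333 to 1.08 CPM. Each of the 37 libraries was closest to another library of its own line. All 8 B-cell marker genes had counts in every group. The other-lineage markers in the table were 6 of 9 for T and NK cells, 3 of 10 for myeloid cells and 7 of 12 for epithelial, fibroblast and endothelial cells, and their levels stand beside the results they move with.

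Telomerase adds the telomeric repeat to chromosome ends. TERT is its reverse transcriptase, which most normal somatic cells hold at a very low level, and DKC1 encodes dyskerin, a pseudouridine synthase that binds and stabilises the telomerase RNA as it does the box H/ACA RNAs. Shelterin coats the ends: TERF1 (TRF1) and TERF2 (TRF2) bind the double-stranded repeat, TERF2IP (RAP1) sits on TRF2, TINF2 (TIN2) joins both TRF proteins, and ACD (TPP1) links TIN2 to POT1, which holds the single-stranded overhang. Through ACD, shelterin also brings telomerase to the end. Activated and malignant B cells are known to express TERT.

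Sequence upstream of the first annotated base is shown for TERT, DKC1 and TINF2, 3 of the 4 members that were lower with both drugs at 6 h (the other was TERF2). It was read 5′ to 3′ from RefSeq on GRCh38.p14, whose table held 6 of the 8 members, without TERF1 and TERF2. Capitals mark the E-box CACGTG, the motif of MYC and MAX, and the GC box GGGCGG or its reverse CCGCCC, the motif of the SP factors, both searched on both strands.
TERT, chr5:1295070-1295318, minus strand: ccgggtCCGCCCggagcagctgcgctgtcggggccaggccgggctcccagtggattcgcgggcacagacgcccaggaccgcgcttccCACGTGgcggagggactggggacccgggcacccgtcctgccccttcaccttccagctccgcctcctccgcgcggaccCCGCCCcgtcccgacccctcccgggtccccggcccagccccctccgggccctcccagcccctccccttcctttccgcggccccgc
DKC1, chrX:154762614-154762741, plus strand: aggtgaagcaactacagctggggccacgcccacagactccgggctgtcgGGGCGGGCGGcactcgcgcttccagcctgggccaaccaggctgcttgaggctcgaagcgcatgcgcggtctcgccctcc
TINF2, chr14:24242675-24242924, minus strand: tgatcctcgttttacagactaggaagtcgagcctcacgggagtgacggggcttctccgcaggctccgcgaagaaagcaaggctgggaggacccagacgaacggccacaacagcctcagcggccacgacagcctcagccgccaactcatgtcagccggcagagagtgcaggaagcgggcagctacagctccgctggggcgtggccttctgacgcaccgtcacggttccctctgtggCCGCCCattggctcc

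The TERT window of 249 bases held 1 E-box and 2 GC boxes. The DKC1 window of 128 bases held no E-box and 2 GC boxes that overlap by shared letters, and the TINF2 window of 250 bases held no E-box and 1 GC box. Of 35116 RefSeq windows, 6.32% held the E-box and 42.6% the GC box at 249 bases, and 2.48% and 22% did so at 128 bases. Those windows were counted from their far end. At 128 bases they are the part farthest from each RefSeq start, not the part next to it. These are matches of letters and say nothing of a factor bound there.

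TERT (ENSG00000164362, GRCh38 chromosome 5, 1253147 to 1295069, minus strand) fell within 6 h with both drugs. Its level in DMSO ran from 1.31 CPM in SUDHL4 through a median of 12.3 to 31.2 CPM in TOLEDO (mean 14.5 ± 9.95 SD, n = 6). With pracinostat it ran from 1.33 through 4.9 to 9.64 CPM. With vorinostat it was 4.81 CPM in OCILY1, 4.21 in PFEIFFER, 0.753 in SUDHL4, 6.22 in TOLEDO and 3.47 in WSUDLCL2. The groups overlapped, because SUDHL4 lay low in every condition, but 5 of 6 lines were lower with pracinostat and 5 of 5 with vorinostat. The exception, SUDHL4 with pracinostat, rested on 8 counts against 4 in DMSO. TERT was 2.59-fold lower with pracinostat (log2 change −1.37, SE 0.21, edgeR adjusted p = 0.000133) and 3.14-fold lower with vorinostat (−1.65, SE 0.24, edgeR adjusted p = 4.75e-05). The background of these tests is wide: at 6 h, of 13177 genes, 40.1% were called with pracinostat (18.9% as lower) and 43.9% with vorinostat (20.9% as lower). B-cell markers were lower too, with summed medians of 9270 CPM in DMSO, 5040 with pracinostat and 5630 with vorinostat. Epithelial, fibroblast and endothelial markers summed to medians of 10.1 CPM in DMSO, 23.9 with pracinostat and 31.2 with vorinostat, with highest values of 259, 240 and 240 CPM. The part of either marker list in the values of the 8 genes at 6 h was not tested. In bulk RNA, fewer cells of a kind and less RNA per cell cannot be told apart.

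The tests used the line as a block, and this carries the calls. Without it, TERT at 6 h gave −1.42 with pracinostat (edgeR adjusted p = 0.242) and −1.90 with vorinostat (edgeR adjusted p = 0.0958). Of the 18 tested values of the 8 genes that were called with the block, 3 were called without it: ACD with each drug and TINF2 with vorinostat, all at 6 h. ACD with pracinostat lay at the threshold there (edgeR adjusted p = 0.05). Leaving out any 1 line kept TERT between −1.47 and −1.25 with pracinostat and between −1.72 and −1.45 with vorinostat, called each time.

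After 14 days TERT was lower than solvent in all 5 lines with each drug, and the fitted fall was larger with vorinostat. In DMSOP the lines had 7.35 CPM (OCILY1), 11.2 (PFEIFFER), 5.16 (SUDHL4), 30.8 (TOLEDO) and 13.2 (WSUDLCL2), and in DMSOV they had 8.63, 13.0, 3.45, 32.0 and 15.8 CPM in the same order. With pracinostat the values were 2.04, 1.13, 0.449, 10.6 and 1.79 CPM, and with vorinostat 1.49, 0.14, 0, 2.21 and 0.612 CPM. Each of the 5 vorinostat libraries lay below all 5 DMSOV libraries, while the pracinostat library of TOLEDO lay among the DMSOP values. TERT was chosen by these values, and groups apart in this way were not counted over all genes. As counts, TERT with vorinostat rested on 9, 1, 0, 12 and 2 reads, against 56, 94, 15, 194 and 108 in DMSOV. The percentage of the solvent level was 17.3% in OCILY1 (95% interval 7.52 to 35.2, exact, counting error only) and 6.89% in TOLEDO (3.5 to 12.3).

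The remaining lines were at 3.87% in WSUDLCL2 (0.463 to 14.3) and 1.09% in PFEIFFER (0.0273 to 6.22). In SUDHL4, with no read, TERT was at least 3.19-fold lower at a floor of 3 counts per library, and its exact interval reached 43.8% of solvent. With pracinostat the percentages were 27.8% in OCILY1, 10.1% in PFEIFFER, 8.71% in SUDHL4, 34.4% in TOLEDO and 13.6% in WSUDLCL2. The fitted log2 changes were −2.40 (SE 0.38) with pracinostat and −4.02 (SE 0.45) with vorinostat. As a point value, the percentage was higher with pracinostat than with vorinostat in OCILY1, PFEIFFER, TOLEDO and WSUDLCL2. SUDHL4, with no read under vorinostat, could not be ordered. Only in TOLEDO was the counting interval with pracinostat (25.9 to 45.3) apart from that with vorinostat. The intervals overlapped in OCILY1 (15.2 to 48.3 with pracinostat), PFEIFFER (4.48 to 20) and WSUDLCL2 (5.73 to 27.7). The solvent cultures were compared with each other too: DMSOV against DMSOP gave 0.06 (SE 0.34, edgeR adjusted p = 1), and solvent at 14 days against 6 h gave 0.18 (SE 0.26, edgeR adjusted p = 0.75). The solvent libraries at 14 days also entered the values by which TERT was chosen. These p-values therefore cannot show that its solvent level held.

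**Figure D1:**
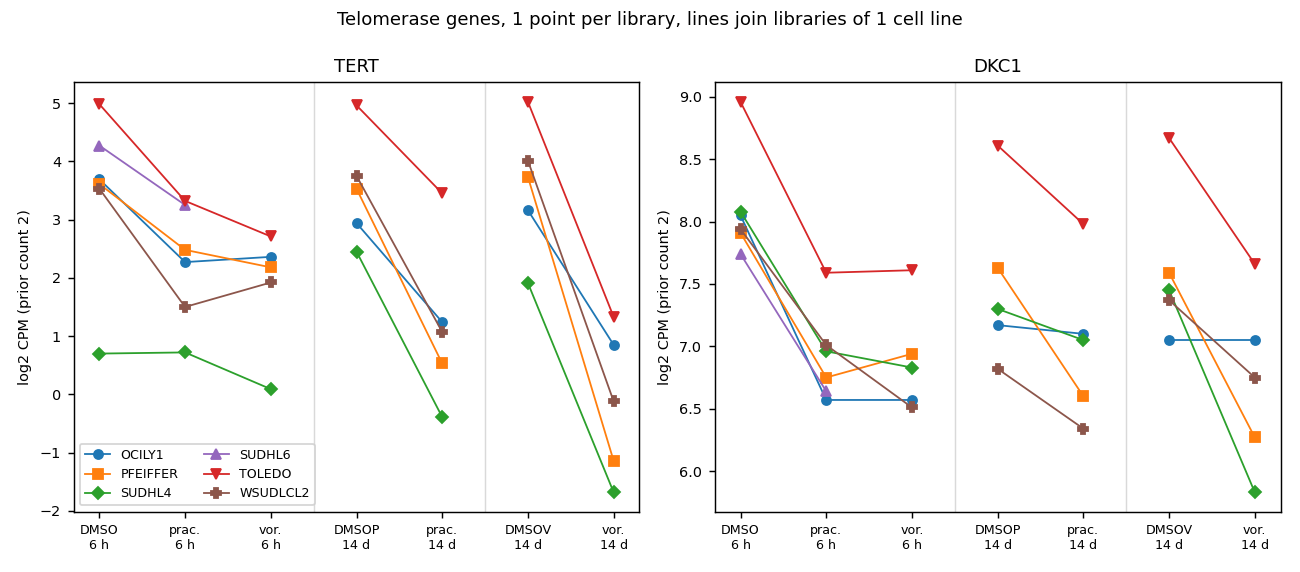
TERT (left) and DKC1 (right) as log2 CPM with a prior count of 2, by treatment and time; each point is 1 library, and lines join the libraries of 1 cell line within a time and solvent set. TERT is lower with both drugs at 14 days in all 5 lines, and DKC1 is lower with both drugs at 6 h in every line.

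Other measures moved with TERT at 14 days. The share of counts from mitochondrially encoded genes was 6.45 to 11% in DMSOP and 6.76 to 12% in DMSOV, against 11.1 to 17% with pracinostat and 10.5 to 17.5% with vorinostat. With those genes left out before scaling, an alternative chosen after seeing the data, TERT gave −2.41 and −4.04. That alternative changes the scaling alone. The part of whatever raised the mitochondrial share in the values of the 8 genes was not tested. The 3 myeloid markers in the table (ITGAM, CSF1R and CD33) had a summed level of 0 to 1.57 CPM in DMSOP and 0 to 1.66 CPM in DMSOV, against 0.768 to 19.6 CPM with pracinostat and 1.1 to 37 CPM with vorinostat. T and NK markers summed to medians of 1.04 and 0.825 CPM in DMSOP and DMSOV, and of 5.15 and 3.6 CPM with pracinostat and vorinostat. NKG7, CD8A, CD4 and NCAM1 each had a higher median with either drug than in its solvent set. Those medians were at most 1.27 CPM, at or near the limit of 3 counts. Only 1 of the 6 genes passed the filter at 14 days, and it was not called with either drug. CD3D had a median of 0 in all 4 groups, and CD3E had 0 with both drugs. The highest T and NK sums went the other way, from 1110 and 1140 CPM in the solvent sets to 672 and 673 CPM with the drugs. CD8A made up nearly all of these, with highest values of 1110 and 1140 CPM in solvent and 646 and 652 CPM with the drugs. Epithelial, fibroblast and endothelial markers had summed medians of 20.7 and 21.8 CPM in DMSOP and DMSOV (highest 287 and 283), and of 21.7 and 40.7 CPM with pracinostat and vorinostat (highest 189 and 156). B-cell markers summed to medians of 6660 and 6570 CPM in the solvent sets and of 11600 and 9420 CPM with the drugs. The part of the other-lineage genes in the values of the 8 genes at 14 days was not tested.

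Proliferation genes were also lower at 14 days. All 20 G2/M and mitosis genes fell with pracinostat, with a median log2 change of −1.54, and all 20 fell with vorinostat, with a median of −1.94. The medians over all genes were 0.07 and 0.12, and 10.2% and 17.2% of 14037 genes fell. MKI67, a nuclear protein of cycling cells, fell with both drugs, at log2 changes of −1.58 with pracinostat (edgeR adjusted p = 0.00884) and −2.47 with vorinostat (edgeR adjusted p = 0.000314). By line it was lowest against DMSOV in SUDHL4 (39.6 against 790 CPM) and TOLEDO (89.7 against 1140 CPM), and least reduced in OCILY1 (322 against 651 CPM). The G1/S and DNA replication list had 12 fallers of 20 with pracinostat and 16 of 20 with vorinostat. At 6 h it already had 7 fallers of 20 with each drug, beside 1 riser with pracinostat and 3 with vorinostat, with medians of −0.21 and −0.32. At 6 h the G2/M genes counted 2 rises and 0 falls with pracinostat, and 0 rises and 3 falls with vorinostat. MKI67 at 6 h gave −0.20 (edgeR adjusted p = 0.444) and −0.49 (edgeR adjusted p = 0.0684). The part of proliferation in the values of the 8 genes was not tested.

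DKC1 (ENSG00000130826, chromosome X, 154762742 to 154777689, plus strand) was lower at 6 h in every line. In DMSO it ran from 214 CPM in SUDHL6 through a median of 255 to 499 CPM in TOLEDO. With pracinostat it ran from 95.0 through 116 to 193 CPM. With vorinostat the lines had 94.4 CPM (OCILY1), 123 (PFEIFFER), 113 (SUDHL4), 195 (TOLEDO) and 90.7 (WSUDLCL2). Every drug library lay below every DMSO library, TOLEDO included, in the values by which DKC1 was chosen. The share of all genes with groups apart in this way was not counted. By line the drug level was 35.8 to 52.7% of DMSO with pracinostat and 35.6 to 51.1% with vorinostat. The fitted folds were 2.29-fold lower (log2 change −1.19, SE 0.10) and 2.45-fold lower (−1.30, SE 0.11). Pracinostat against vorinostat gave a log2 difference of 0.10 (95% interval −0.13 to 0.33).

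At 14 days DKC1 was lower with vorinostat and did not pass the test with pracinostat. In DMSOP the lines OCILY1, PFEIFFER, SUDHL4, TOLEDO and WSUDLCL2 had 144, 197, 157, 390 and 113 CPM, and with pracinostat 137, 96.6, 132, 252 and 80.6 CPM. In DMSOV they had 132, 192, 174, 407 and 165 CPM, and with vorinostat 132, 76.9, 56.6, 202 and 107 CPM. All groups overlapped, and TOLEDO was above the other lines in each. DKC1 fell 1.80-fold with vorinostat (log2 change −0.85, SE 0.21, edgeR adjusted p = 0.00473), and in pracinostat it was −0.47 (SE 0.20, edgeR adjusted p = 0.107) with 5 of 5 lines lower. With mitochondrially encoded genes left out, the vorinostat value was −0.87 (edgeR adjusted p = 0.00455). OCILY1 stood apart, with 95.3% of its solvent level with pracinostat and 100% with vorinostat.

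The fitted solvent level of DKC1 also differed between the times. In solvent cultures at 14 days it was 1.52-fold lower than at 6 h (log2 change −0.60, SE 0.15, edgeR adjusted p = 0.0107), where 4.02% of 15420 genes were called as lower. This call was lost without OCILY1 (edgeR adjusted p = 0.0667) and without WSUDLCL2 (edgeR adjusted p = 0.0661). The DMSO libraries at 6 h also entered the values by which DKC1 was chosen, which favours a higher level at 6 h. The p-value therefore cannot show that the solvent level moved. DKC1 hosts 2 small nucleolar RNAs and a miRNA, which are not in the table.

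The 6 shelterin genes did not move as a block. At 6 h, 3 of 6 were called with each drug, 1 as higher (ACD) and 2 as lower (TINF2 and TERF2), where 40.1% and 43.9% of all genes were called. At 14 days, 1 of 6 was called with pracinostat (TERF1, lower), where 22.6% of 14037 genes were called. With vorinostat 2 of 6 were called at 14 days (TERF1 and POT1, both lower), where 37.6% of genes were called. With 6 genes these counts lie near the background and show nothing particular to shelterin. The median over the 6 genes was 0.02 and −0.07 at 6 h and −0.22 and −0.27 at 14 days for pracinostat and vorinostat. Over all genes the medians were 0.03 and 0.02 at 6 h, and 0.07 and 0.12 at 14 days.

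**Figure D2:**
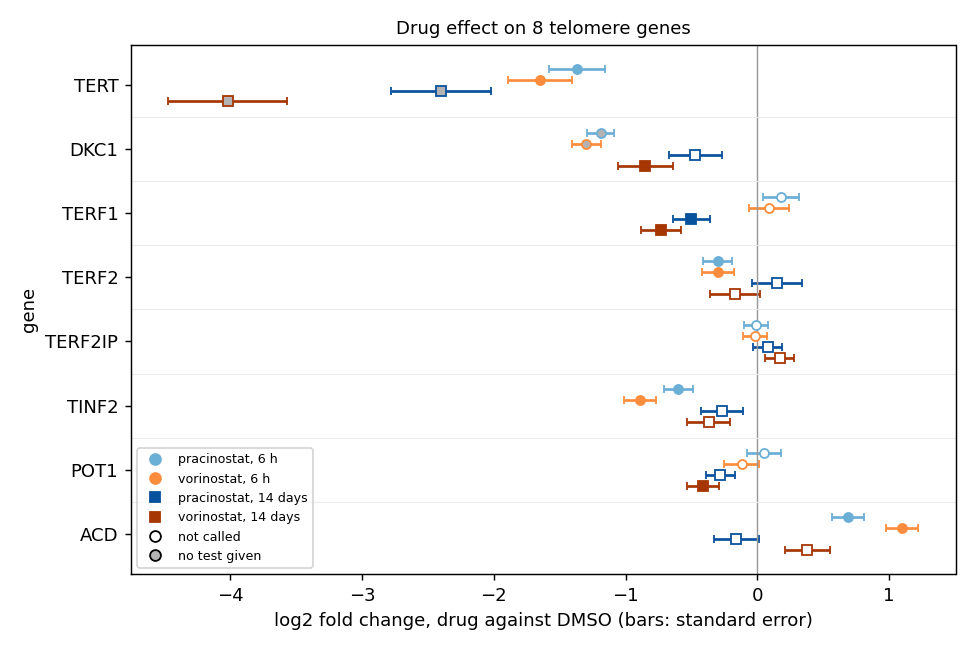
Log2 fold change of each of the 8 genes against its DMSO set for both drugs at 6 h (circles) and 14 days (squares), with bars of 1 standard error; open points did not pass an adjusted p of 0.05 and grey points carry no test. ACD lies right of 0 at 6 h and TERT lies farthest left, at −4.02 with vorinostat at 14 days.

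ACD (ENSG00000102977, chromosome 16, 67657512 to 67660815, minus strand), the link to POT1 and to telomerase, was the member that rose at 6 h. In DMSO it ran from 18.0 CPM in SUDHL4 through a median of 22.2 to 31.2 CPM in PFEIFFER. With pracinostat it ran from 29.0 through 33.6 to 50.8 CPM. With vorinostat the lines had 50.9 CPM (OCILY1), 54.3 (PFEIFFER), 36.7 (SUDHL4), 52.2 (TOLEDO) and 61.0 (WSUDLCL2). All 5 vorinostat libraries lay above all 6 DMSO libraries, and every line was higher with either drug. How many of all genes had groups apart in this way was not counted. ACD rose 1.61-fold with pracinostat (log2 change 0.69, SE 0.12, edgeR adjusted p = 0.000296) and 2.14-fold with vorinostat (1.10, SE 0.12, edgeR adjusted p = 6.14e-06). Of all genes, 21.2% and 23.1% were called as higher there. The changes by line spanned only 0.53 to 0.81 with pracinostat and 0.80 to 1.45 with vorinostat.

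By 14 days ACD no longer passed the test. DMSOP libraries had 19.4, 31.6, 29.8, 34.5 and 32.6 CPM in OCILY1, PFEIFFER, SUDHL4, TOLEDO and WSUDLCL2, and pracinostat libraries 28.4, 30.9, 17.1, 26.0 and 26.9 CPM. DMSOV libraries had 22.5, 32.6, 25.0, 26.6 and 34.7 CPM, and vorinostat libraries 32.7, 26.4, 35.0, 41.9 and 44.7 CPM. OCILY1 was the 1 line higher with pracinostat, and PFEIFFER the 1 line lower with vorinostat. The log2 changes were −0.16 (SE 0.17, edgeR adjusted p = 0.53) and 0.38 (SE 0.17, edgeR adjusted p = 0.0927). Without PFEIFFER the latter was 0.54 and passed (edgeR adjusted p = 0.0353). ACD shares 1.8% of its exon bases with CARMIL2 on the other strand, and since the strand setting of the counting is not given, reads there cannot be told apart.

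TINF2 (ENSG00000092330, chromosome 14, 24239643 to 24242674, minus strand), the hub that binds both TRF proteins and ACD, fell at 6 h. In DMSO it ran from 45.0 CPM in WSUDLCL2 through a median of 52.9 to 77.7 CPM in SUDHL6. With pracinostat it ran from 28.7 through 33.8 to 50.6 CPM, and the highest was again SUDHL6. With vorinostat the lines had 27.0, 24.3, 25.6, 35.0 and 27.6 CPM in OCILY1, PFEIFFER, SUDHL4, TOLEDO and WSUDLCL2. All vorinostat libraries lay below all DMSO libraries, while SUDHL6 with pracinostat overlapped the DMSO libraries. How many of all genes had groups apart in this way was not counted. TINF2 fell 1.52-fold with pracinostat (log2 change −0.60, SE 0.11, edgeR adjusted p = 0.00065) and 1.85-fold with vorinostat (−0.89, SE 0.12, edgeR adjusted p = 3.76e-05), in every line.

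At 14 days TINF2 gave −0.27 with pracinostat (SE 0.16, edgeR adjusted p = 0.222) and −0.37 with vorinostat (SE 0.16, edgeR adjusted p = 0.0823). With pracinostat the level was 26.7 CPM in OCILY1 and 23.2 in SUDHL4, against 41.1 and 42.6 CPM in DMSOP, while PFEIFFER, TOLEDO and WSUDLCL2 stood at 40.2, 50.1 and 41.9 CPM against 43.9, 48.0 and 40.9 CPM. SUDHL4 was the lowest line again with vorinostat, at 23.1 CPM against 46.4 CPM. The value with vorinostat passed the test under 4 alternatives: both solvent sets as control (edgeR adjusted p = 0.0364), library totals (0.0331), 1 fit of all libraries (0.0325) and limma on the deposited values (0.0498).

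ACD and TINF2 therefore shifted against each other, which a ratio of their counts per kilobase of exon shows without any scaling of the libraries. The pair was chosen after its values were seen, so the ratio is a description. In DMSO at 6 h the ratio of ACD to TINF2 ran from 0.203 through a median of 0.368 to 0.479. With pracinostat at 6 h it ran from 0.482 through 0.844 to 1.49. With vorinostat at 6 h it was 1.59 in OCILY1, 1.88 in PFEIFFER, 1.21 in SUDHL4, 1.26 in TOLEDO and 1.86 in WSUDLCL2. The lowest value with either drug was above the highest in DMSO, and with vorinostat ACD exceeded TINF2 in all 5 lines. At 14 days the median ratio was 0.604 in DMSOP and 0.619 with pracinostat, and 0.499 in DMSOV and 0.931 with vorinostat. PFEIFFER was the 1 line with a lower ratio under vorinostat than in DMSOV (0.637 against 0.678).

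**Figure D3:**
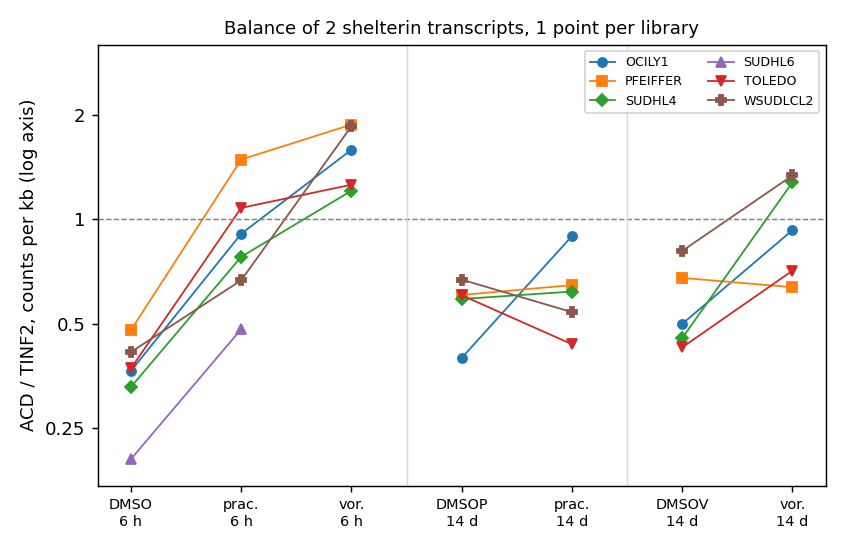
Ratio of ACD to TINF2, both as counts per kilobase of exon, on a log axis, 1 point per library with lines joining the libraries of 1 cell line. All 6 DMSO libraries at 6 h lie below 0.48 and all 5 vorinostat libraries at 6 h lie above 1.2.

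TERF1 (ENSG00000147601, chromosome 8, 73008864 to 73048122, plus strand), a binder of the double-stranded repeat, was the shelterin gene that fell with both drugs at 14 days. In DMSOP the lines OCILY1, PFEIFFER, SUDHL4, TOLEDO and WSUDLCL2 had 56.5, 80.8, 35.9, 108 and 42.3 CPM, and with pracinostat 38.8, 49.6, 28.0, 66.2 and 34.9 CPM. In DMSOV they had 50.7, 90.4, 44.1, 110 and 55.6 CPM, and with vorinostat 39.3, 55.7, 16.6, 52.0 and 43.1 CPM. The groups overlapped, but all 5 lines were lower with each drug, SUDHL4 with vorinostat the most. TERF1 fell 1.41-fold with pracinostat (log2 change −0.50, SE 0.14, edgeR adjusted p = 0.0213) and 1.65-fold with vorinostat (−0.73, SE 0.15, edgeR adjusted p = 0.00132). The pracinostat call was lost without OCILY1 (edgeR adjusted p = 0.0719), PFEIFFER (0.113) or TOLEDO (0.0728), while the vorinostat call was kept whichever line was left out. With mitochondrially encoded genes left out the values were −0.51 (edgeR adjusted p = 0.023) and −0.74 (edgeR adjusted p = 0.00138). At 6 h TERF1 gave 0.18 (SE 0.14, edgeR adjusted p = 0.312) and 0.09 (SE 0.15, edgeR adjusted p = 0.641). The lines split there, from −0.47 in TOLEDO to 0.80 in WSUDLCL2 with pracinostat.

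TERF2 (ENSG00000132604, chromosome 16, 69355561 to 69408571, minus strand), which guards the end against being joined to another, moved little. At 6 h it ran from 59.2 through 83.4 to 143 CPM in DMSO and from 53.3 through 70.4 to 93.4 CPM with pracinostat. With vorinostat the lines had 50.5 CPM (OCILY1), 102 (PFEIFFER), 95.6 (SUDHL4), 60.0 (TOLEDO) and 79.6 (WSUDLCL2). SUDHL4 and WSUDLCL2 carried most of the drop, from 143 and 122 CPM. TERF2 fell 1.24-fold with each drug (log2 change −0.30; SE 0.11 and 0.12; edgeR adjusted p = 0.0352 and 0.0435). Both calls were lost without SUDHL4 (edgeR adjusted p = 0.135 and 0.158), without WSUDLCL2 (0.133 and 0.145) and without OCILY1 (0.0642 and 0.0993), the one with pracinostat also without PFEIFFER (0.0555), and both with library totals in place of TMM scaling (0.155 and 0.136). At 14 days the lines went both ways with pracinostat, with WSUDLCL2 at 152 CPM against 91.3 and PFEIFFER at 147 against 97.4, but TOLEDO at 53.5 against 75.4. The fitted values were 0.15 (SE 0.19, edgeR adjusted p = 0.592) and −0.17 (SE 0.19, edgeR adjusted p = 0.491).

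TERF2IP (ENSG00000166848, chromosome 16, 75647786 to 75761872, plus strand), the partner of TRF2, was not called in any comparison. Its log2 changes were −0.01 (95% interval −0.20 to 0.17) and −0.02 (−0.22 to 0.18) with pracinostat and vorinostat at 6 h, and 0.08 (−0.15 to 0.32) and 0.17 (−0.06 to 0.41) at 14 days. The widest of these intervals reaches 0.41. Levels ran from 71.8 CPM in OCILY1 to 165 CPM in WSUDLCL2 in DMSO at 6 h, and by line from −0.11 to 0.11 against DMSO with pracinostat. With vorinostat at 14 days all 5 lines were higher, by 0.01 to 0.34, without passing the test (edgeR adjusted p = 0.231). TERF2IP shares 5.21% of its exon bases with KARS on the other strand.

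POT1 (ENSG00000128513, chromosome 7, 124822386 to 124929983, minus strand), the binder of the single-stranded overhang, was called only at 14 days. At 6 h it gave 0.05 (SE 0.13, edgeR adjusted p = 0.764) with pracinostat and −0.12 (SE 0.13, edgeR adjusted p = 0.508) with vorinostat. At 14 days OCILY1, PFEIFFER, SUDHL4, TOLEDO and WSUDLCL2 had 117, 30.8, 64.3, 56.0 and 48.3 CPM in DMSOP and 98.6, 19.4, 51.8, 56.2 and 39.0 CPM with pracinostat. In DMSOV they had 111, 26.4, 84.5, 65.5 and 57.5 CPM, and with vorinostat 81.8, 23.2, 56.2, 52.9 and 37.3 CPM. All 5 lines were lower with vorinostat, and 4 of 5 with pracinostat, where TOLEDO kept its level. POT1 fell 1.32-fold with vorinostat (log2 change −0.41, SE 0.12, edgeR adjusted p = 0.0117), and gave −0.42 with mitochondrially encoded genes left out (edgeR adjusted p = 0.0089). The difference between the times did not pass the test with either drug (−0.36, edgeR adjusted p = 0.138, and −0.32, edgeR adjusted p = 0.191), but passed with library totals (−0.50, edgeR adjusted p = 0.0326, and −0.49, edgeR adjusted p = 0.04). With pracinostat the change was −0.28 (SE 0.11, edgeR adjusted p = 0.0848), which passed against both solvent sets together (−0.34, edgeR adjusted p = 0.0158) and with library totals (−0.35, edgeR adjusted p = 0.0434). In solvent, POT1 was 1.25-fold higher at 14 days than at 6 h (log2 change 0.32, SE 0.10, edgeR adjusted p = 0.0472), the 1 shelterin gene of 6 called there, where 7.56% of 15420 genes were called, 3.54% as higher. That call was lost when any line but TOLEDO was left out (edgeR adjusted p up to 0.207). POT1 shares 1.88% of its exon bases with POT1-AS1 on the other strand.

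**Figure D4:**
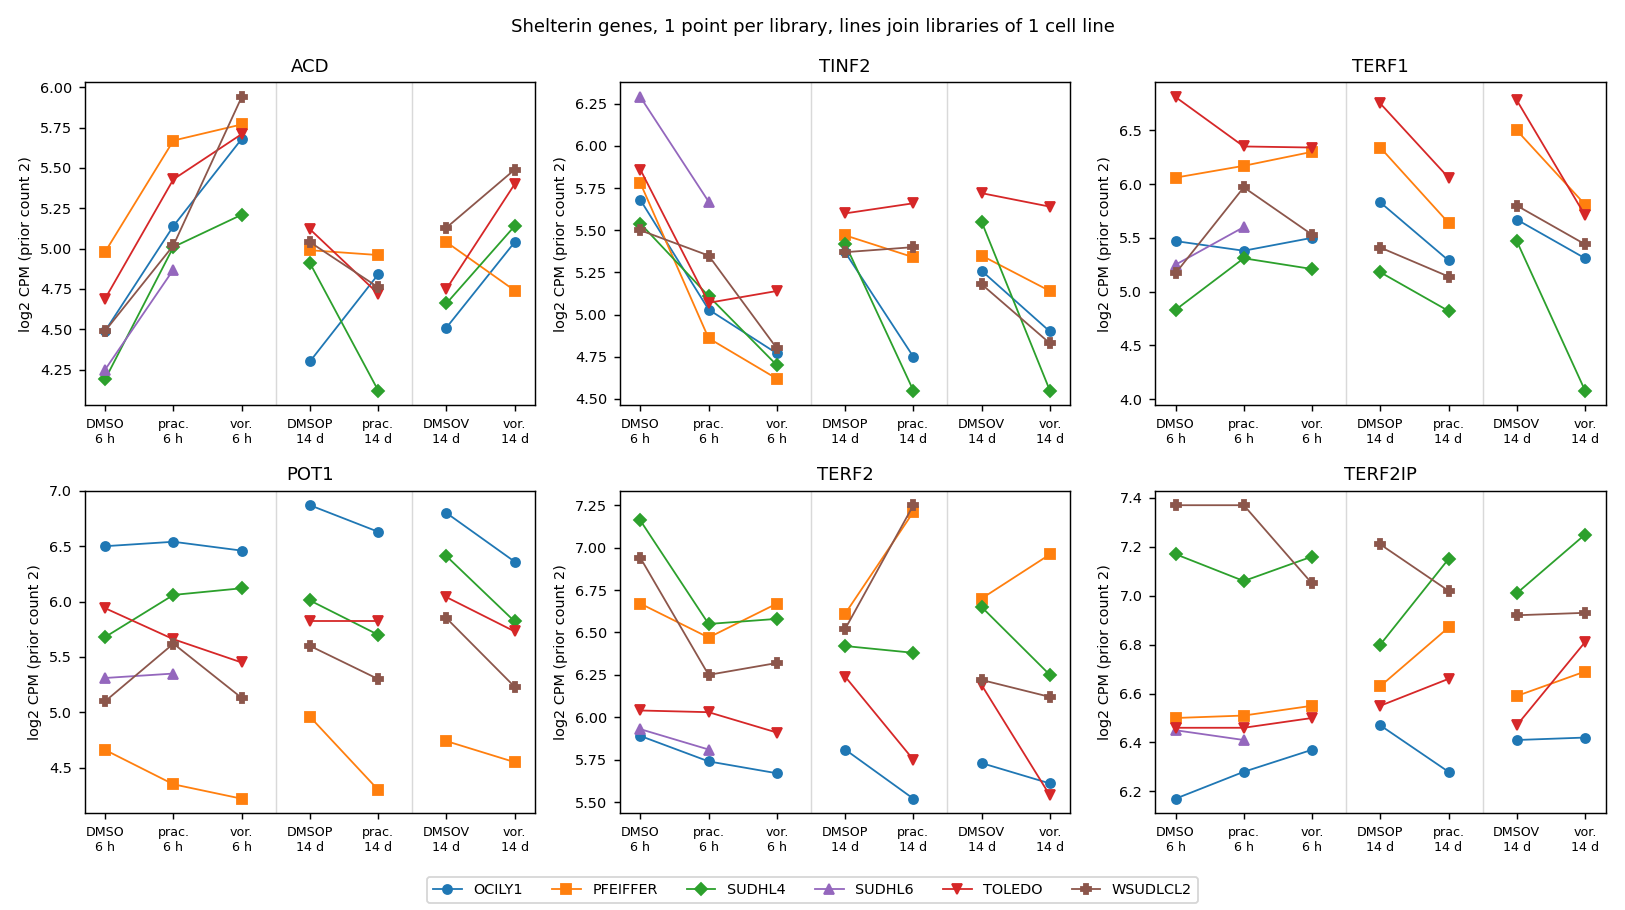
The 6 shelterin genes as log2 CPM with a prior count of 2, by treatment and time, 1 point per library with lines joining the libraries of 1 cell line; each panel has its own scale. ACD is higher and TINF2 lower with both drugs at 6 h in every line, and TERF1 is lower with both drugs at 14 days in every line.

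The effect of a drug differed between the times for 2 of 6 shelterin genes with each drug, where 19.4% of 15420 genes were called for pracinostat (9.83% in the lower direction) and 23.4% for vorinostat (12.2%). ACD was less raised at 14 days than at 6 h, by −0.87 with pracinostat (SE 0.21, edgeR adjusted p = 0.00443) and by −0.75 with vorinostat (SE 0.21, edgeR adjusted p = 0.0118). TERF1 was lower at 14 days relative to its 6 h effect, by −0.71 (SE 0.21, edgeR adjusted p = 0.0168) and −0.85 (SE 0.21, edgeR adjusted p = 0.00501). Without SUDHL4, 3 of these 4 calls were lost, with edgeR adjusted p of 0.0537 to 0.0552, and ACD with vorinostat was lost without WSUDLCL2 (0.0502). TERF1 with pracinostat was also lost without PFEIFFER (0.0831). For TINF2, lower at 6 h and not called at 14 days, the difference between the times did not pass the test (0.31, edgeR adjusted p = 0.278, and 0.49, edgeR adjusted p = 0.0759). The vorinostat value passed with DESeq2 (0.54, adjusted p = 0.0348) and without SUDHL4 (0.66, edgeR adjusted p = 0.0291). As a description, the TERT effect was −1.04 (SE 0.43) and −2.41 (SE 0.51) farther down at 14 days, and the DKC1 effect 0.70 (SE 0.24) and 0.41 (SE 0.25) less far down.

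Pracinostat and vorinostat were compared directly at each time for all 8 genes, and none of the tested members was called. At 6 h edgeR called 2 of 13177 genes (0.0152%), 1 in each direction (0.00759%), and DESeq2 called 50, and no shelterin gene was among either tool's calls, while 2 of 6 had an unadjusted p under 0.05. Those 2 were ACD, −0.41 with pracinostat relative to vorinostat (95% interval −0.67 to −0.15, edgeR adjusted p = 0.372) and lower in 5 of 5 lines, and TINF2, 0.29 (0.03 to 0.55, edgeR adjusted p = 0.514) and higher in 4 of 5. TERT gave 0.28 (−0.24 to 0.80, edgeR adjusted p = 0.764). At 14 days, each against its own solvent set, edgeR and DESeq2 called 0 of 14037 genes (0%), and 552 genes had an unadjusted p under 0.05. There 1 of 6 shelterin genes had an unadjusted p under 0.05, ACD at −0.54 (−1.06 to −0.03, edgeR adjusted p = 1). TERT differed by 1.61 (SE 0.58), as a description, with the higher level under pracinostat. The intervals are wide, and the doses behind them are not known here, so equal action is not shown. No member was called between the 2 solvent sets, with log2 differences between −0.07 and 0.14 (edgeR adjusted p = 1 for each). edgeR called 0 of 14037 genes between them (0%), with 83 at an unadjusted p under 0.05 and 0 called by DESeq2.

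Without drug, the lines differed most in TERT. Over the 3 solvent libraries of a line (1 for SUDHL6), its mean was 31.3 ± 0.632 CPM (SD) in TOLEDO, 18.9 in SUDHL6, 13.4 ± 2.29 in WSUDLCL2, 12.0 ± 0.888 in PFEIFFER, 9.53 ± 2.74 in OCILY1 and 3.30 ± 1.93 in SUDHL4, a 9.49-fold span. WSUDLCL2, PFEIFFER and OCILY1 overlapped their neighbours in this order, and TOLEDO and SUDHL4 stood apart at the ends. TOLEDO was also highest in DKC1, at 432 ± 58.6 CPM, while the other 5 lines overlapped between 174 and 214 CPM. It was highest in TERF1 too, at 110 ± 2.38 CPM, followed by PFEIFFER at 79.3 ± 12. POT1 ran from 106 ± 13.9 CPM in OCILY1 to 27.4 ± 3.08 in PFEIFFER, a 3.87-fold span with both ends apart from the rest. SUDHL6 was highest in TINF2 (77.7 CPM, 1 library) and, by these means, lowest in ACD (18.7 CPM). Its 1 library is from 6 h, while the means of the other lines pool both times. In DMSO at 6 h alone, ACD was lower in SUDHL4 (18.0 CPM), and DKC1 was lowest in SUDHL6 (214 CPM). TERF2, TERF2IP, TINF2 and ACD spanned 1.7-fold to 1.96-fold between the lines.

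Within a library, levels of different genes were compared per kilobase of exon. Exon length joined all annotated transcripts of a gene (8.83 kb for TERF1 and 2.71 kb for TINF2), and the order of the genes depends on it. TERF2IP was the most abundant shelterin transcript in 36 of 37 libraries, with a mean of 31.9 CPM per kilobase in DMSO at 6 h, and TINF2 was in the other one. TINF2 followed at 20.4 and TERF2 at 16.4, with POT1 at 8.5, ACD at 7.12 and TERF1 at 6.12 CPM per kilobase. DKC1 stood at 68.7 and TERT at 3.16 CPM per kilobase there. With vorinostat at 6 h ACD was at 15.8 CPM per kilobase and TINF2 at 10.3. The sum of the 6 shelterin genes had group medians of 80.6 to 89.1 CPM per kilobase, with single libraries from 70.8 to 104.

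The other parts of the telomerase RNA-protein complex moved in both directions. The counts in this and the other gene lists stand against the shares over all genes, which at 6 h were 21.2% higher and 18.9% lower with pracinostat and 23.1% and 20.9% with vorinostat. At 14 days they were 12.3% and 10.2% with pracinostat and 20.4% and 17.2% with vorinostat. Of 14 measured H/ACA and assembly partners, 4 rose and 2 fell with each drug at 6 h, near the 40.1% and 43.9% of all genes called. With pracinostat at 14 days 0 rose and 3 fell, and with vorinostat 1 rose and 5 fell. The medians were 0.04, 0.00, −0.28 and −0.19. WRAP53, which carries the telomerase RNA to Cajal bodies, rose at 6 h by 0.82 with pracinostat (edgeR adjusted p = 7.48e-05) and 0.94 with vorinostat (edgeR adjusted p = 2.99e-05). Overlaps with genes on the opposite strand were not examined for these partners, and reads there cannot be told apart. GAR1, a core protein beside dyskerin, fell at 6 h by 0.78 and 0.85 (edgeR adjusted p = 0.00277 and 0.00196). PARN, the nuclease that trims the telomerase RNA, fell by 0.60 and 0.63, and TENT4B, the polymerase that opposes it by adding A residues, rose by 0.60 and 0.84, all called. The core partners NOP10 and NHP2, named after their values were seen, were not called at 6 h, at 0.16 and −0.20 with pracinostat and −0.18 and −0.01 with vorinostat. At 14 days WRAP53 fell by 0.64 with pracinostat (edgeR adjusted p = 0.0145), and with vorinostat NOP10 rose by 0.47 (edgeR adjusted p = 0.0261) while NAF1 fell by 0.66 (edgeR adjusted p = 0.00604).

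Among genes of C-strand fill-in and end processing, more fell than rose with each drug at 14 days. Of 6 genes of the CST complex and its polymerase, 1 rose and 1 fell with each drug at 6 h. At 14 days 2 of 6 fell with pracinostat and 5 of 6 with vorinostat, and none rose. PRIM1, the primase subunit that makes the RNA primer, fell by 1.31 and 1.35 at 14 days (edgeR adjusted p = 0.00449 and 0.0017). Of 17 end processing and replication factors, 2 rose and 5 fell with each drug at 6 h. At 14 days pracinostat gave 1 riser and 7 fallers and vorinostat 1 riser and 12 fallers, with medians of −0.43 and −0.69. The effect differed between the times for 6 of the 17 with pracinostat, 4 in the lower direction, and for 12 with vorinostat, 9 in the lower direction. Over all genes, 19.4% and 23.4% were called there, 9.83% and 12.2% in the lower direction. This was not particular to end processing: of the 20 G2/M and mitosis genes, 20 and 19 were called in the lower direction. NBN, of the MRE11 complex that trims and senses ends, fell by 0.99 and 1.22 at 6 h (edgeR adjusted p = 1.78e-05 and 3.97e-06). The helicase BLM rose at 6 h by 0.41 and 0.37 and fell at 14 days (−1.05 and −1.56), all called. ERCC1, of the nuclease that clips overhangs, was the 1 riser at 14 days, by 0.62 and 0.84 (edgeR adjusted p = 0.00694 and 0.00041).

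Among 13 genes of telomeric repeat binding and chromatin, pracinostat at 6 h gave 1 riser and 6 fallers and vorinostat 1 riser and 7 fallers. At 14 days 0 rose and 4 fell, and 1 rose and 6 fell. SUV39H1, which lays down the histone mark of silent chromatin, fell by 1.07 and 1.66 at 6 h and by 1.24 and 1.52 at 14 days, all called. CBX5, the HP1 protein that reads that mark, fell at 14 days (−0.93 and −1.50; edgeR adjusted p = 0.0044 and 7.94e-05). KMT5B, which adds another silencing mark at telomeres, fell at 6 h by 0.86 and 1.31 (edgeR adjusted p = 7e-05 and 2.86e-06).

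Genes whose products are known to act on the TERT promoter also changed. Of 14 activators, pracinostat at 6 h gave 2 risers and 8 fallers and vorinostat 3 risers and 9 fallers, with medians of −0.30 and −0.45. MYC, which binds the E-box with MAX, fell at 6 h by 1.07 and 1.01 (edgeR adjusted p = 0.000402 and 0.00093), while MAX rose by 0.40 and 0.71. The largest rise of the list at 6 h, in a gene not named here, was 0.87 and 1.31, both called. By line MYC with vorinostat ran from 84.8 CPM in TOLEDO, against 264 in DMSO, to 458 CPM in OCILY1, against 387. In OCILY1 TERT with vorinostat was at 38.2% of DMSO (95% interval 24.1 to 58.7, counting error only). At 14 days MYC gave 0.02 and −0.03 (edgeR adjusted p = 0.942 and 0.907). The part of MYC in the TERT values was not tested. E2F1 fell at 14 days by 1.22 and 1.35 (edgeR adjusted p = 0.00227 and 0.000392). SP1, a binder of GC boxes, fell by 0.97 with vorinostat at 14 days (edgeR adjusted p = 0.000205). MAX was raised again at 14 days, by 0.46 and 0.56 (edgeR adjusted p = 0.00433 and 0.000474). Activators counted 2 rises and 5 falls with pracinostat at 14 days and 2 rises and 6 falls with vorinostat.

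Of 10 repressors of the TERT promoter, pracinostat at 6 h gave 1 riser and 4 fallers and vorinostat 1 riser and 2 fallers, again near the share of all genes called. At 14 days 1 rose and 1 fell, and 3 rose and 2 fell. MXD1, which competes with MYC for MAX, rose at 6 h by 1.05 and 1.94 (edgeR adjusted p = 0.000329 and 2.07e-06), and its relative MXD4 rose at 14 days by 1.02 and 1.19 (edgeR adjusted p = 0.0209 and 0.00563). CTCF, the insulator protein, fell by 1.19 and 1.40 at 6 h and by 0.56 and 0.95 at 14 days, all called.

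The neighbours of TERT on the short arm of chromosome 5 did not move as one. Of 13 tested, pracinostat at 6 h gave 2 risers and 2 fallers and vorinostat 2 risers and 3 fallers. At 14 days 0 rose and 3 fell, and 4 rose and 2 fell. TPPP, a tubulin polymerisation protein, rose at 6 h by 2.03 and 2.52, and TRIP13, a mitotic checkpoint ATPase, fell at 14 days by 1.61 and 2.00, all called. The median of the neighbours was 0.14 and 0.12 at 14 days, against 0.07 and 0.12 over all genes.

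The genes closest in pattern to TERT were sought over the 20 libraries at 14 days, as the correlation of log2 CPM centred within each line, among 10295 genes. The highest Pearson values were PRDM10 (0.981), RTTN (0.976), NAA25 (0.975), NUP188 (0.974) and XPOT (0.974), where the median gene had 0.0719. DKC1 stood at 0.845 (rank 1029) and TERF1 at 0.832 (rank 1148), and TERF2IP at −0.472. For DKC1 over the 17 libraries at 6 h, among 10100 genes, the closest were CUL4A (0.991), CTPS1 (0.991), TRMT2B (0.989), SEH1L (0.988) and CNBP (0.987), with a median gene at −0.0136. TINF2 followed DKC1 at 0.922 (rank 564) and TERT at 0.873, and ACD ran opposite at −0.938 (rank 9908). The points share lines, libraries and the drug contrast itself, so these values describe likeness only.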

How the data were processed

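Per the labels' protocols, Trizol was used for the RNA and the Illumina TruSeq RNA kit for the libraries. The submitters' processing notes name STAR, edgeR and the build hg38. No tool version, gene annotation or strand setting is given in the sources used here. The deposited table holds whole-number read counts per gene for 37 of 38 libraries; a further SUDHL4 vorinostat library at 14 days was not analysed here. The authors also deposited normalized log2 CPM values, used in 1 alternative, where the SUDHL4 vorinostat column at 14 days fits the labels of 2 samples. Symbols came from GENCODE 29 on GRCh38 for 17859 of 18011 genes.

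The counts went into edgeR 4.0.16 (R 4.3.3) with TMM scaling, its default filter (at least 10 counts in enough libraries and 15 in all), quasi-likelihood tests with the robust option and Benjamini-Hochberg adjustment over all genes, called at an adjusted p under 0.05. The cell line was the block, since libraries of all groups come from the same lines; each time was fitted apart, and differences between times in 1 fit of all libraries. With 1 library per line, treatment and time, the p-values measure how far a difference varied between the lines. Variation between cultures of 1 line and technical variation are part of that spread and cannot be told apart from it. Each drug at 14 days was set against the DMSO carrying its first letter, a reading of the titles. CPM use TMM library sizes, log2 CPM a prior count of 2, and 95% intervals come from the same fits or, for count ratios, are exact. The scripts were checked on simulated data. All 8 genes are named, and from each list up to 2 called members per direction and comparison, with MYC and MKI67, and the 5 genes closest to TERT and to DKC1 among those with mean log2 CPM of at least 2. Members and lists were chosen with earlier results of these data known. Alternatives were RLE scaling, library totals, no filter, DESeq2 1.42.0, limma 3.58.1 on the log2 values, pooled solvent sets, 1 fit of all libraries, no line block and each line left out. 1 gene of the lists is not reported here by name.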

Additional observations from a re-analysis of the deposited data

Results flagged for a closer look

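TOLEDO stood apart from the other lines in 4 groups, by the gap of its value to the nearest other library relative to the whole range of the group. TERT with pracinostat at 14 days was 10.6 CPM in TOLEDO, against 2.04 CPM in the next line. DKC1 was 499 CPM in TOLEDO in DMSO at 6 h (next 270), 193 CPM with pracinostat at 6 h (next 129) and 407 CPM in DMSOV (next 192). In all, 56 pairs of gene and group were examined, and chance alone sets a sample apart in about 5% of groups. TERF1 and ACD differed between the times in their drug effect, by the interaction test. For TERF1 the effect at 14 days minus that at 6 h was −0.71 with pracinostat and −0.85 with vorinostat, and for ACD it was −0.87 and −0.75.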

How the results depend on the processing

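No value changed direction with a call under the alternatives run. The count of shelterin genes called with pracinostat at 14 days went from 1 to 2 with library totals or with both solvent sets as control. The 1 gene called between solvent times became 0 with no filter on low counts and with mitochondrially encoded genes left out (chosen after seeing the data). With no replicate block for the line, the counts were 1 for pracinostat at 6 h (3 with the block), and 0 for pracinostat and vorinostat at 14 days, for the solvent times and for both differences between times. Leaving out 1 line gave counts of 2 to 3 for each drug at 6 h, 0 to 1 for pracinostat and 2 to 3 for vorinostat at 14 days, 0 to 1 between solvent times, and 0 to 2 and 1 to 2 for the time differences of pracinostat and vorinostat. Over all gene values and settings, 46 lost a call, 13 gained one, 5 moved and 1040 were counted as the same. The 1040 include the TERT and DKC1 values given as description, which have no threshold to keep. They are therefore no measure of how stable the calls are. DKC1 with pracinostat at 14 days passed with both solvent sets (edgeR adjusted p = 0.0325) and in 1 fit of all libraries (0.0377). The direct comparison of the drugs at 6 h called 2 genes with edgeR and 50 with DESeq2. Library totals moved the median of all genes at 6 h from 0.03 to 0.13 with pracinostat and from 0.02 to 0.10 with vorinostat. The causes of these changes were not tested. TERT rests on 0 to 12 counts per library with vorinostat at 14 days, so ratios there are imprecise.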
